A study of Mus musculus with 36 samples.

Results

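Broad H3K4me3 domains were the stretches of at least 5000 bp over which histone H3 trimethylated at lysine 4 (H3K4me3) was called as 1 peak in mouse pancreas. They were chosen by their width: autosomal peaks of 5000 bp or more were taken from each of 12 peak lists, merged where they overlapped, and kept where at least 2 lists held such a peak. This gave 1114 domains, against 28847 autosomal H3K4me3 regions of any width that at least 2 lists shared and 1337 regions in which at least 1 list held a peak of 5000 bp or more. Because widths chose the members, their widths are given as a description with no test. Tests were run on a second mark and on the direction in which peaks reached farther from a gene start. Width was tested only at domains chosen without the mice compared.

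The lists came from 12 mice in 4 genotypes, 3 mice each, and every mouse had an H3K4me3 list and an H3K27me3 list (H3 trimethylated at lysine 27). The genotypes were Wildtype (WT), Mist1creERT/+EZH2[delta]SET (EZ), and a pair labelled KR and KE that carried Mist1creERT/+ with a further Cre-inducible allele, KR without and KE with Ezh2[delta]SET. All mice received tamoxifen by oral gavage, at 2 to 4 months of age by the methods of the study, and pancreas was collected 22 days after the first dose. The inducible Cre is driven from Mist1, which is active in acinar cells, so the loss of the SET domain of EZH2 and the recombination of the further allele concern acinar cells, whereas the chromatin came from whole pancreas and held every cell type of the organ. The peak lists hold positions without read counts, so the sequencing depth of a library and the signal within a peak are unknown.

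H3K4me3 marks the starts of transcribed genes, where it is laid down by the SET1 and MLL methyltransferases, usually over a short stretch around the first nucleosomes of the gene. Domains that extend for several kilobases into the gene body are known from many tissues and lie often at the genes that define a cell type. Acinar cells make up most of the exocrine pancreas, and they devote most of their protein synthesis to digestive enzymes. EZH2 is the methyltransferase of Polycomb repressive complex 2 and deposits H3K27me3, the mark of repressed developmental genes.

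The sequences below show how unlike each other the starts under broad domains are. Each is the promoter window of 250 bases before to 50 bases after the start (RefSeq, GRCm38.p6), written 5′ to 3′ on the strand of the gene, with CpG dinucleotides in capitals. Cpb1 (carboxypeptidase B1, a secreted protease; chr3:20275684-20275983, minus strand) lies at the widest domain. Bhlha15 (chr5:144190036-144190335, plus strand), Pdx1 (chr5:147269847-147270146, plus strand), Errfi1 (chr4:150853546-150853845, plus strand) and Ubb (chr11:62550921-62551220, plus strand) lie at the widest domain with a printable window among acinar transcription factors, islet genes, ERK feedback genes and housekeeping genes. Ikzf1 (chr11:11685675-11685974, plus strand) was added after its values were seen, as a gene whose domain was wide in 2 mice only.
Cpb1: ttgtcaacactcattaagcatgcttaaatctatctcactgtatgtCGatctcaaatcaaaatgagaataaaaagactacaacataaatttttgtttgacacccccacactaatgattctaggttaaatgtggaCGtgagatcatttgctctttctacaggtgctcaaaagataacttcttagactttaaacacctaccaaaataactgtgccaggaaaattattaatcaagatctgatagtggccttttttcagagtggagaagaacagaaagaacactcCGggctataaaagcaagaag
Bhlha15: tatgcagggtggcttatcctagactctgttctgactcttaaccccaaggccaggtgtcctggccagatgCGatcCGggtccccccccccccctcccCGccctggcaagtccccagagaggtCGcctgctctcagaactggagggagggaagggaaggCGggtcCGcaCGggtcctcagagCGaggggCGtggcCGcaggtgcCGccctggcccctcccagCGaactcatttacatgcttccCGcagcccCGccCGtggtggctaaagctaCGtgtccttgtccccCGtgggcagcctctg
Pdx1: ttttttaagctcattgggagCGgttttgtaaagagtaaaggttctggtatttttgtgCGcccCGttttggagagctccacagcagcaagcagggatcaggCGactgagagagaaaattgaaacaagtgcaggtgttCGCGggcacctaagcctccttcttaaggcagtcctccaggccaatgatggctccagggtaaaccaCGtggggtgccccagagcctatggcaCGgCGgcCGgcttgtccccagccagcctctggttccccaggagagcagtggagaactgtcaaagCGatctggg
Errfi1: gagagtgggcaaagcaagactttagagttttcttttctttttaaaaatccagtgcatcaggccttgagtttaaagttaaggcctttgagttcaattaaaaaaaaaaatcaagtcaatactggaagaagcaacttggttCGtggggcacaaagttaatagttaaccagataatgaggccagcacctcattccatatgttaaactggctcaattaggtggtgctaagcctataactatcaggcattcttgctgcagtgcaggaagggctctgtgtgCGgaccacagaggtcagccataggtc
Ubb: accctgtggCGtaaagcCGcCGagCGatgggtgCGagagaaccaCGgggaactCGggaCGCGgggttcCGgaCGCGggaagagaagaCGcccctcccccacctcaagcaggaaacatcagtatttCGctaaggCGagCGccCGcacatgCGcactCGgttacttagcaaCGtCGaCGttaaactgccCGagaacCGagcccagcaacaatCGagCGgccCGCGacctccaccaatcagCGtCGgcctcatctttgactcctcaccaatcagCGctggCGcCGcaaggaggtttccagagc
Ikzf1: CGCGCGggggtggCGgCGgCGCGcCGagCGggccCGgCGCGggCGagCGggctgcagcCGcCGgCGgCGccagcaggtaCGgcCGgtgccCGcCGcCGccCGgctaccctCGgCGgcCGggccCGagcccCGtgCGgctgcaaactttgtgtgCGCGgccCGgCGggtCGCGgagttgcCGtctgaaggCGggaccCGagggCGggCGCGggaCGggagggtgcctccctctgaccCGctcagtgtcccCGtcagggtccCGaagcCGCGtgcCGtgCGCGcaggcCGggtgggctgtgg

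The Cpb1 window held 3 CpG dinucleotides in 300 bases and 35.3% G and C. The Errfi1 window held 2 CpG, the Pdx1 window 11, the Bhlha15 window 17, the Ubb window 33 and the Ikzf1 window 52. The start of the widest domain was therefore nearly free of CpG, and a start rich in CpG could lie under a domain that most mice lacked.

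The H3K4me3 list of WT replicate 2 held 16912 autosomal peaks, against 21263 to 25433 in the other 11 mice, and 429 of its peaks reached 5000 bp, against 617 to 906. WT replicate 2 and, to a lesser degree, KR replicate 1 also differed in which genes were marked. Of 20 leukocyte genes, 12 had an H3K4me3 peak at their start in WT replicate 2 and 10 in KR replicate 1, against 6 in KE replicate 1 and 4 in each of the other 9 mice. The summed peak width over these 20 genes was 75885 bp in WT replicate 2 and 58485 bp in KR replicate 1. It lay between 18781 and 19063 bp in the other WT and EZ mice, between 16854 and 18155 bp in the other KR mice, and between 13350 and 19185 bp in KE mice. Ptprc, the pan-leukocyte phosphatase CD45, had a peak at its start of 11083 bp in WT replicate 2, 6379 bp in KR replicate 1 and 3510 bp in KE replicate 1, and none at the start in the other 9 mice. Cd3e, a subunit of the T cell receptor complex, had a peak in WT replicate 2 and KR replicate 1 and none elsewhere. The macrophage markers Adgre1 and Cd68 and the myeloid integrin Itgam had no peak in any mouse.

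In the same lists acinar genes and markers of islet cells were narrower, and in WT replicate 2 also markers of duct cells. Over 25 digestive enzyme genes, the summed peak width at the start was 88770 bp in WT replicate 2 and 148636 bp in KR replicate 1, against 180803 to 220129 bp in the other 10 mice. Over 15 acinar transcription factors it was 57821 bp in WT replicate 2, 85639 bp in KR replicate 1 and 91045 to 123546 bp in the others. Over 5 duct markers the sum was 5622 bp in WT replicate 2, 13537 bp in KR replicate 1 and 13291 to 17023 bp in the others. Over 7 islet markers it was 4284 bp, 6891 bp and 7304 to 8970 bp in the same order, all of it at Pdx1 and Nkx6-1. Over 3 endothelial markers it was higher in these 2 libraries, 5702 and 5403 bp against 1061 to 1750 bp, because Pecam1, an adhesion molecule of endothelial cells and leukocytes, had a peak in them only (4264 and 4295 bp). Over 5 fibroblast and stellate markers it was 4499 and 4340 bp, against 2531 to 4336 bp. Whether these 2 samples held lymphoid tissue was not tested, and the WT and KR means include them. The part of these libraries in any difference between genotypes was not tested beyond leaving them out. In whole tissue, fewer cells of a type and less of a mark per cell cannot be told apart.

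The merged domains were 5039 to 25753 bp long, with a median of 6566 bp. Averaged over 12 mice, the widest peak at a domain measured between 921 and 20092 bp, with a median of 5268 bp. A peak of 5000 bp or more was present in all 12 lists at 224 domains, in 10 or more lists at 508, in 3 to 9 lists at 423 and in exactly 2 lists at 183. At the lower limit, the second widest list measured 5002 bp at Acaa2, 5003 bp at Wdr20 and 5006 bp at Klf6, all members. It measured 4999 bp at Hs2st1/Selenof, 4998 bp at Vac14 and 4996 bp at Etnk1, all left out. The limit thus cut through a continuous range of widths.

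In each mouse 2.54% to 3.56% of autosomal peaks reached 5000 bp, and they held 8.55% to 13.9% of all bases in peaks. The median width over the 1114 domains, in bp, was 5441, 4241 and 5524 in WT mice, 5663, 5580 and 5584 in EZ mice, 5274, 5497 and 5253 in KR mice and 5131, 5790 and 5626 in KE mice. WT replicate 2 was the narrowest and KE replicate 2 the widest. Only the EZ mice lay within 100 bp of each other.

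Cpb1 had the widest domain, at chr3:20256203-20277917, which covered 71.1% of the gene. Its widest peak measured 21161, 12893 and 21080 bp in WT mice, 21404, 21430 and 20618 bp in EZ mice, 16522, 21356 and 21025 bp in KR mice and 21249, 21606 and 20762 bp in KE mice. The mice lay between 20618 and 21606 bp, apart from WT replicate 2 and KR replicate 1. Tent5c, a cytoplasmic poly(A) polymerase, followed at chr3:100469891-100492557 with a mean of 19285 bp. Sel1l, the adaptor of the HRD1 ubiquitin ligase that clears misfolded proteins from the endoplasmic reticulum (ER), had a mean of 18723 bp at chr12:91833065-91856323. Its peak reached 22253 to 23259 bp in EZ mice and 22468 and 22544 bp in WT replicates 1 and 3, but 6209 bp in WT replicate 2. It measured 11453, 18156 and 17997 bp in KR mice and 17363, 17211 and 22969 bp in KE mice.

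The fourth domain, at chr14:63227067-63252819, held no gene start and lay inside Gata4, 18873 bp downstream of its start, over the start of another Gata4 transcript. The Gata4 start itself lay in a separate domain at chr14:63260826-63272626. The remaining 6 were at Rhof/Setd1b (mean 15725 bp; SETD1B is an H3K4 methyltransferase), Meis2 (15652 bp; a homeobox factor), Mknk1 (15444 bp; a kinase of the translation factor eIF4E), Itprid2 (15355 bp), Zfp503 (14485 bp; a zinc finger repressor) and Wdr25/Wars (14470 bp; Wars encodes the tryptophan tRNA synthetase). Zfp503 was the steadiest of the 10: its width lay between 13154 and 14754 bp in all 12 mice, and the whole gene lay inside the domain.

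**Figure D1:**
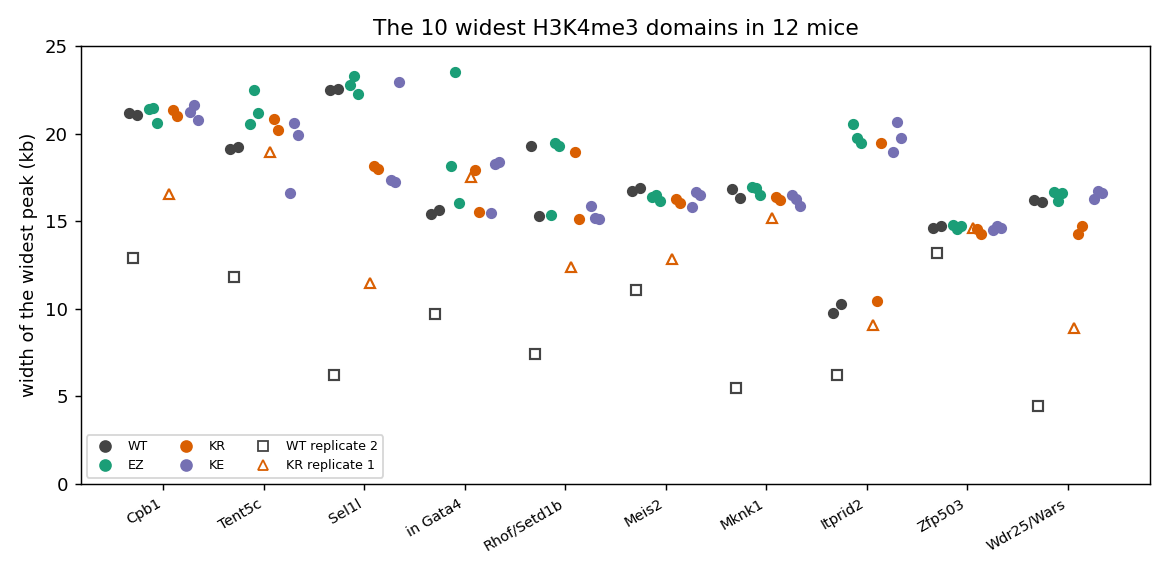
Width in kb of the widest peak at each of the 10 widest domains, with 1 marker for each of 12 mice, colored by genotype. Open symbols are WT replicate 2 and KR replicate 1; WT replicate 2 is the lowest point at each of the 10 domains, and at Zfp503 all mice lie between 13154 and 14754 bp.

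A protein-coding gene started inside 882 of the 1114 domains (79.2%), compared with 35.9% of the 27734 H3K4me3 regions that overlapped no domain. Exactly 1 such gene started in 740 domains, 2 in 125 and 3 or more in 17, and 126 domains held starts on both strands. A further 67 domains held only the start of a noncoding gene. Of the domains with no protein-coding gene start, 151 held the start of another transcript of such a gene, 39 held none but touched a gene body, and 42 touched no protein-coding gene. By bases, 18.2% of the domain length was exonic, 60.2% intronic and 21.6% outside protein-coding genes. In total 1044 protein-coding genes started in a domain, which is 5.02% of all 20807 autosomal ones and 8.53% of the 12235 that started in an H3K4me3 region. In the lists that follow, counts over all genes of a list are read against the first share and counts over the genes with a region against the second.

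The lists with the largest shares were those of acinar secretion. Of 25 digestive enzyme and zymogen genes, 22 had an H3K4me3 region at their start and 20 lay at a domain, the amylase copy Amy2b, annotated as a pseudogene, included. Their mean widths had a median of 7947 bp, against 5333 bp over all genes at a domain. A median of 90.5% of the length of these genes lay inside the domain, against 19.9% over all genes at a domain, and 7 of the 20 lay wholly inside. This was not particular to enzymes: the median was 100% for listed duct, AP-1 and immediate early, and housekeeping genes at a domain. The share also depends on the length of a gene. After Cpb1 and Amy2b (14307 bp), the lipase relative Pnliprp1 had a mean width of 12724 bp, the elastase Cela3b 11435 bp and the trypsinogen Prss2 11092 bp. The narrowest was Ctrb1, chymotrypsinogen, with a mean of 5213 bp and a peak of 5000 bp or more in 8 lists. Amylase genes and Prss2 belong to families of near-identical copies, so the placement of their reads, and the width of their domains, is uncertain.

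Of 15 acinar transcription factors, 10 lay at a domain. The widest was Gata6, with a mean of 13406 bp and a range of 10526 to 14052 bp. Bhlha15, which encodes MIST1 and carries the Cre insertion in EZ, KR and KE mice (the label of WT mice does not say), measured 12449, 4658 and 12571 bp in WT mice, 12435, 12317 and 12592 bp in EZ mice, 5263, 12254 and 6228 bp in KR mice and 6265, 12576 and 12391 bp in KE mice. The width was either 12254 bp or more or 6265 bp or less, and both kinds occurred in every genotype but EZ. Ptf1a, the factor that specifies acinar fate, showed the same kind of step: it measured 13774, 13623 and 13628 bp in EZ replicate 1, KR replicate 2 and KE replicate 2, and 5317 to 7275 bp in the other 9 mice. Its bases covered by any peak were 13774, 13623 and 13628 bp in the same wide mice and 9399 to 12910 bp in the other 9. The step in the widest peak was therefore larger than that in the bases covered. By genotype the bases covered averaged 11493 bp in WT, 13172 in EZ, 12647 in KR and 12863 in KE mice. Nr5a2, Rbpjl, Xbp1, Klf15, Gata4 and Nr0b2 were among the other members.

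Of 20 genes of ER folding and the unfolded protein response, 13 lay at a domain. Eif2ak3, which encodes the ER stress kinase PERK, had the widest with a mean of 11202 bp. The disulfide isomerase Pdia2 had 10609 bp, and Hspa5, which encodes the ER chaperone BiP, had 8743 bp with a peak of 5000 bp or more in all 12 mice.

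The remaining lists reached smaller shares. Of 19 AP-1 and immediate early genes, 9 lay at a domain, among them Ier2 (mean 7579 bp), Zfp36 (7307 bp) and Myc (6436 bp). Of 15 duct genes, 6 did, led by Foxa2 (13275 bp) and Onecut1 (8287 bp), which acinar cells also use, whereas the keratins Krt19 and Krt7 did not. Of 16 clock genes, 6 did, with Per1 the widest (6371 bp). The tumor suppressors and cell cycle list gave 4 of 13, with Arid1a at 6084 bp. Of 18 ERK feedback and ETS genes, 5 lay at a domain, of 22 autosomal genes of PRC2 and H3K4 methylation 5, of 13 autosomal housekeeping genes 4 and of 20 leukocyte genes 5. Pdx1 was the only member of the 20 autosomal islet genes, and it has a role in acinar cells too. Meis1 and Meis2 were the only members among 21 endothelial and stromal genes. Of the genes with an H3K4me3 region at their start, these were 1 of 6 islet genes and 2 of 12 endothelial and stromal genes (16.7% each). None of 39 Hox genes lay at a domain, although 11 had an H3K4me3 region at their start. Of 7 marker genes of islet cells, Pdx1 and Nkx6-1 had a peak at the start, and the hormone genes Ins1, Ins2, Gcg and Sst had none in any mouse.

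The choice used no sequence, and the domains differed among themselves in CpG. The ratio of observed to expected CpG had a median of 0.45 over all domains and 0.56 over the 10908 other H3K4me3 regions with a gene start. At the 20 domains of digestive enzymes the median was 0.18 and the highest value 0.29. Over all 27734 other H3K4me3 regions it was 0.39. At acinar transcription factors it was 0.34, at ER genes 0.40, at AP-1 genes 0.53 and at ERK feedback genes 0.71. The lowest value for ERK feedback genes (0.39) lay above the highest for digestive enzymes. These ratios were taken over the whole length of a region, and the domains were longer. The 1114 domains held 8.31 Mb and the 10908 other regions with a gene start 28.2 Mb. In windows of equal length, given next, domains did not have fewer CpG.

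Promoter windows inside a domain had a median of 23 CpG, windows over other H3K4me3 regions 20, and the 18 windows of listed digestive enzymes inside a domain 3. Over all 31396 autosomal windows the median was 7. The letters TATAAA, searched on both strands, were found in 8 of these 18 windows (44.4%), in 9.43% of the windows inside a domain, in 6.54% of the windows over other H3K4me3 regions and in 13.6% of all windows. The E-box letters CAGCTG, which read the same on both strands, were found in 5 of the 18 (27.8%), in 14.7% of windows inside a domain, in 15.4% of windows over other H3K4me3 regions and in 16.3% of all windows. No window of the acinar transcription factors held CAGCTG. These matches are a description of the letters and show no binding.

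At the 740 domains with 1 protein-coding gene start, the mark reached mainly into the gene. The reach to both sides adds up to the width that chose the domains, so only the balance between the sides was tested. The size of the difference in bp grows with that width, so the test bears on its direction only. The same genes were measured in all 12 mice, so the p-value concerns mice and not genes. In each mouse the widest peak spanned the start at 662 to 701 of them. The median reach downstream was 3314 to 4637 bp and the median reach upstream 952 to 1209 bp. The per-mouse median of downstream minus upstream was 2246 to 3433 bp, with a mean of 3033 ± 299 bp (SD, n = 12 mice), and it was above 0 in 12 of 12 mice (exact sign-flip permutation test, two-sided, p = 0.000488, the smallest this design can give). In every mouse 94.4% to 95.5% of these domains reached farther downstream. At other H3K4me3 regions with 1 gene start, the median reach was 1293 to 1401 bp downstream and 611 to 679 bp upstream, and 88.3% to 90.2% reached farther downstream. Their median difference was above 0 in every mouse too, at 653 to 718 bp, so a longer downstream side was not particular to the domains. Only 7 of the 740 reached farther upstream in all 12 mice: Xrra1, Zbtb37, Nsun6, Rnf213, Plekha8, Tnrc18 and Tnpo2, named after their values were seen.

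**Figure D2:**
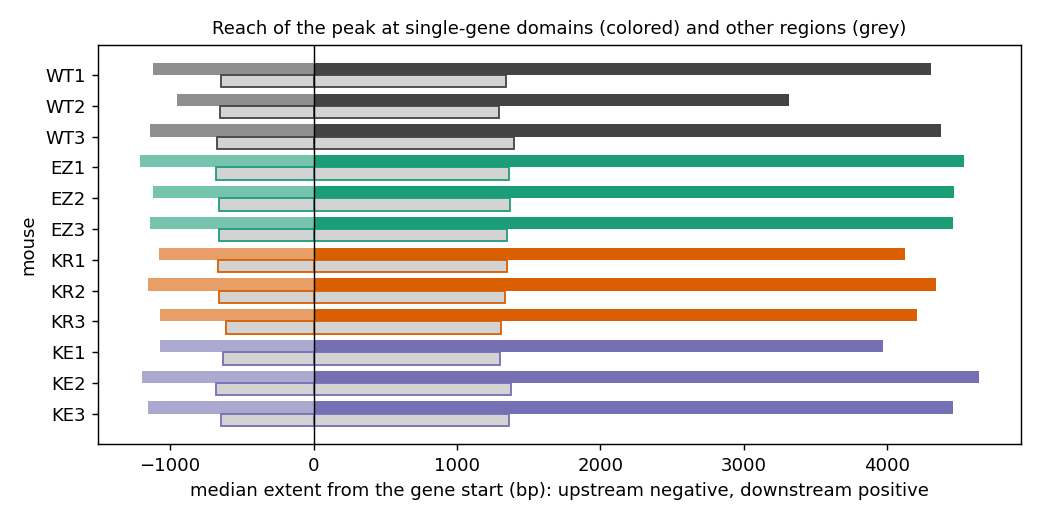
Median reach of the peak upstream (left of 0) and downstream (right of 0) of the gene start in bp, for each of 12 mice. Colored bars are the 740 single-gene domains and grey bars other H3K4me3 regions with 1 gene start; the colored bars reach 3314 to 4637 bp downstream and the grey bars 1293 to 1401 bp.

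The domains wide in exactly 2 lists were not spread evenly over pairs of mice. Of the 183, 89 were wide in WT replicate 2 and KR replicate 1, and no other pair of lists held more than 8. Among the 203 domains wide in 11 lists, WT replicate 2 was the list without the wide peak at 193. Removing both libraries and applying the rule to the other 10 lists gave 1006 domains.

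The 89 domains had a median width of 6473 bp in WT replicate 2 and 6147 bp in KR replicate 1. The median was 2911 bp in KE replicate 1, 2344 bp in EZ replicate 2 and 1558 to 1796 bp in the other 8 mice, of which each lacked any peak at 21 to 26 of the 89. Over the 508 domains wide in 10 or more lists, WT replicate 2 was the lowest with a median of 4915 bp, KR replicate 1 followed with 6136 bp and KE replicate 1 with 6255 bp, and the other 9 mice lay between 6545 and 6986 bp. Both sets were chosen by these widths, so the order of WT replicate 2 and KR replicate 1 in the first set follows from the choice.

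Of the 89, 71 held the start of a protein-coding gene, and 4 of the 5 leukocyte list genes at a domain were among them: Ikzf1, Ptprc, Cd79a and Tcf7. Ikzf1, the lymphoid zinc finger factor Ikaros, measured 11870 bp in WT replicate 2, 11574 bp in KR replicate 1, 3152 bp in KE replicate 1, 2344 bp in EZ replicate 2 and at most 879 bp elsewhere. Stk17b, a kinase abundant in T cells, measured 14396 and 13516 bp in WT replicate 2 and KR replicate 1 and 1730 to 4754 bp in the other mice. Pik3cd and Ms4a6b, named after their values were seen like Stk17b, were also wide in these 2 mice only. The fifth leukocyte list gene, Bcl6, a repressor of lymphocyte genes that is also used outside leukocytes, was wide in all 12 mice.

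**Figure D3:**
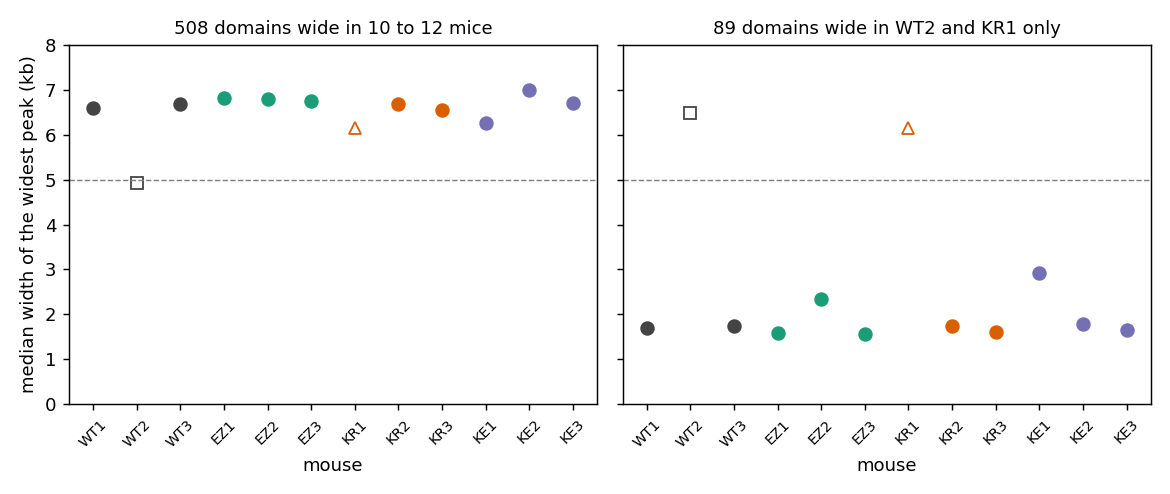
Median width in kb of the widest peak in each mouse at 508 domains wide in 10 to 12 mice (left) and at 89 domains wide only in WT replicate 2 and KR replicate 1 (right). The dashed line is 5 kb; the open square is WT replicate 2 and the open triangle KR replicate 1, which are at 6473 and 6147 bp on the right while 8 mice lie at 1558 to 1796 bp.

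Among the 10 mice other than WT replicate 2 and KR replicate 1, 1083 domains had a peak in every mouse. The widest and narrowest mouse differed by over 1.5 times at 390 of them (36.0%) for the widest peak and at 193 (17.8%) for the bases covered by any peak inside the domain. The widest peak can step up or down where neighboring peaks are called as 1 or apart, so covered bases are given below for the domains where they change the comparison most.

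At 177 of 1114 domains (15.9%) every EZ mouse was wider than every WT mouse, and at 10 (0.898%) every EZ mouse was narrower. The same count over all H3K4me3 regions was 10.1% wider and 1.36% narrower. Without WT replicate 2 and KR replicate 1, and of the domains with a peak in the mice compared, 213 domains were wider (19.3%, background 12.7%) and 96 narrower (8.70%, background 8.63%). The excess of wider over narrower domains was therefore smaller in 2 WT mice than in 3.

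Itprid2 had the largest difference. Its widest peak measured 9778, 6227 and 10255 bp in WT mice and 20562, 19734 and 19445 bp in EZ mice, with 9054, 10417 and 19479 bp in KR mice and 18921, 20670 and 19720 bp in KE mice. Every EZ and KE mouse was above every WT mouse, and the KR mice were split. The bases covered were 17405, 9484 and 17868 bp in WT mice and 19445 to 20562 bp in EZ mice, so the difference in covered bases was smaller, 4995 bp against 11160 bp for the widest peak. The domain inside Gata4 (WT mean 13561 ± 3362 bp, EZ 19233 ± 3829 bp, SD, n = 3 each) and Tent5c (16713 ± 4248 and 21388 ± 986 bp) followed, and at both WT replicate 2 was the narrowest mouse. Tent5c measured 19094, 11809 and 19237 bp in WT mice and 20532, 22466 and 21165 bp in EZ mice. The difference in means fell from 4674 to 2222 bp at Tent5c, and from 5672 to 3733 bp at the domain inside Gata4 (chr14:63227067-63252819), when WT replicate 2 was left out. The bases covered at the domain inside Gata4 were 21568, 9681 and 21465 bp in WT mice and 22399 to 24344 bp in EZ mice.

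Irf2bp2, which encodes a corepressor of IRF2, was named after its values were seen. It measured 9283, 9398 and 9138 bp in WT mice, 12708 to 12841 bp in EZ mice, 12557 to 12752 bp in KR mice and 12518 to 12768 bp in KE mice. The 9 mice of the other genotypes lay above all 3 WT mice, WT replicate 2 among them. The covered bases in WT mice were 12242, 11823 and 12066 bp, still below the other 9 mice but by less. Among the lists, Rbpjl, Gata6 and Xbp1 of 10 acinar transcription factors were wider in every EZ mouse than in every WT mouse, as were 5 of 20 digestive enzyme domains (Cel, Cela1, Pla2g1b, Pnliprp2 and Prss2) and 5 of 13 ER gene domains (Canx, Dnajc3, Herpud1, Pdia2 and Xbp1). The share over all domains was 15.9%, and whether a list differs from it was not tested. None of these 3 lists had a member narrower in every EZ mouse. With both libraries left out the wider members were the same, and Cela2a and Cela3b were narrower in every EZ mouse. The shares over all domains were then 19.3% wider and 8.70% narrower.

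The largest falls from WT to EZ were at Hes7/9130213A22Rik/Aloxe3, Plekha2 and a domain inside Chd9 at chr8:90885948-90893407. The difference at Plekha2, EZ minus WT, was -1929 bp with all mice and -882 bp without WT replicate 2. The Hes7 domain, at a repressor of the segmentation clock, measured 9047, 5378 and 9085 bp in WT mice and 5225 to 5340 bp in EZ mice, but its covered bases overlapped (7668 to 9085 and 7358 to 8166 bp). The Chd9 domain, inside a gene for a chromatin remodeler, measured 7167, 5955 and 7133 bp in WT mice, 5158 to 5503 bp in EZ mice, 6133 to 7196 bp in KR mice and 4969 to 5297 bp in KE mice. Both genotypes without the SET domain lay below both genotypes with it at this domain, in widest peak and in covered bases alike.

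Every KR mouse was wider than every WT mouse at 61 domains (5.48%) and narrower at 12 (1.08%), against 3.60% and 1.77% of all H3K4me3 regions. Without WT replicate 2 and KR replicate 1 the balance turned: 177 domains were wider (16.2%, background 11.0%) and 336 narrower (30.7%, background 24.6%). The median difference over domains, KR minus WT, was 154 bp with all mice and -89 bp without the 2 libraries.

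The largest rises were at Slc25a35, a domain inside Celsr1 at chr15:86015640-86022246 and a domain at chr16:93349570-93362065 that touched no protein-coding gene. Slc25a35, a mitochondrial carrier, measured 4970, 2474 and 4619 bp in WT mice and 7872, 8009 and 7596 bp in KR mice, with covered bases of 3796 to 6367 and 7596 to 8009 bp. The Celsr1 domain measured 1322 to 2762 bp in WT, 4436 to 6607 bp in KR and 4554 to 6282 bp in KE mice. The chr16 domain measured 10819, 3027 and 10480 bp in WT mice, 10961, 12479 and 11726 bp in KR mice and 11660, 12487 and 11973 bp in KE mice, with WT replicate 2 far below the rest. Without the 2 libraries the differences from WT fell from 3613 to 1453 bp for KR and from 3931 to 1391 bp for KE.

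The largest falls were at a domain outside genes at chr11:28708522-28717690, at the noncoding gene Gm37622 and at Fxyd3, a regulator of the sodium pump. The chr11 domain measured 9169, 4627 and 8567 bp in WT mice and 2757, 3178 and 3045 bp in KR mice, and no KR mouse reached the narrowest WT mouse. Gm37622 had 5408, 820 and 5124 bp in WT mice and 5223 to 5344 bp in EZ mice, no peak in any KR mouse, and 501, 3384 and 3187 bp in KE mice. Fxyd3 was 5018, 636 and 5029 bp in WT mice, 1321, 1318 and 1176 bp in EZ mice and 958 and 1060 bp in KE replicates 2 and 3, with no peak in KE replicate 1 and 2 KR mice and 501 bp in KR replicate 2. WT replicates 1 and 3 were thus wide there, and the other 10 mice were not.

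Dusp4, an ERK phosphatase that ERK signaling induces, was the 1 domain of the 5 ERK feedback members wider in every KR mouse than in every WT mouse, against 5.48% of all domains. It measured 5280, 5436 and 5432 bp in WT mice, 5155, 5291 and 5331 bp in EZ mice, 6091, 5698 and 5744 bp in KR mice and 5292, 5222 and 5270 bp in KE mice. All 3 KR mice stood above the other 9. Dusp6, another ERK phosphatase, measured 5366, 8566 and 6133 bp in WT mice, 5449, 5948 and 5296 bp in EZ mice, 6544, 5825 and 5726 bp in KR mice and 5576, 5408 and 5676 bp in KE mice, so that KR mice lay above KE mice but within the range of WT mice. WT replicate 2 had the widest Dusp6 domain.

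The shares over all domains stand beside the following counts: 5.48% wider with all mice, and 16.2% wider and 30.7% narrower without the 2 libraries. Of 10 acinar transcription factor domains, Nr0b2 was wider and none narrower in every KR mouse. Of 20 digestive enzyme domains, Prss2 was wider and none narrower with all mice, and none of the 13 ER gene domains separated. Without the 2 libraries, Gata6, Nr0b2 and Xbp1 were wider and Bhlha15 narrower, and of the ER genes Dnajb9 and Xbp1 were wider and Atf6, Eif2ak3, Hspa5 and Pdia2 narrower. Of the digestive enzymes, 6 (Cela2a, Cela3b, Ctrc, Ctrl, Gp2 and Spink1) were narrower in both KR mice than in both WT mice and Prss2 was wider. The counts of narrower ER genes and enzymes were near the share of all domains.

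Every KE mouse was wider than every WT mouse at 104 domains (9.34%) and narrower at 15 (1.35%), where the background was 4.55% and 1.68%. With WT replicate 2 and KR replicate 1 left out these were 131 (11.8%, background 6.35%) and 128 (11.5%, background 11.7%). Every KE mouse was wider than every KR mouse at 105 domains (9.43%) and narrower at 23 (2.06%), against 5.18% and 2.06% of all regions, and without the 2 libraries at 167 (15.0%, background 10.1%) and 54 (4.85%, background 6.15%). These comparisons share the WT, KR and KE mice with the ones above.

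The largest rises over WT were at Itprid2, Wdr25/Wars and the chr16 domain. Wdr25/Wars measured 16176, 4471 and 16106 bp in WT mice, 8880, 14282 and 14718 bp in KR mice and 16281, 16721 and 16591 bp in KE mice. WT replicate 2 was far below the rest, and WT replicates 1 and 3 lay just below the KE mice. Without WT replicate 2 and KR replicate 1 the difference in means, KE minus WT, was 390 bp in place of 4280 bp, and KE minus KR was 2031 bp in place of 3904 bp.

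The Hes7 domain and Zc3h4 were among the 3 largest falls from WT. At the Hes7 domain KE mice measured 5198, 5174 and 5069 bp, but their covered bases (7539 to 7871 bp) overlapped those of WT mice (7668 to 9085 bp). Zc3h4, a gene for a zinc finger protein that restrains noncoding transcription, measured 7350, 7646 and 7414 bp in WT mice, 7238 to 7722 bp in EZ mice, 7940, 7520 and 4599 bp in KR mice and 4865, 4876 and 4890 bp in KE mice. The KE mice were within 25 bp of each other. Their covered bases were 6559 to 6696 bp, against 7350 to 7646 bp in WT mice.

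Between KE and KR mice the largest rises were at Reg3b/Reg3d/Reg3a, Ndrg1 and Wdr25/Wars, and the largest falls at Arid1a, Gm37419/Bcl6 and Slc12a8. The Reg3 genes, secreted proteins of the injured pancreas, measured 3278, 4286 and 4706 bp in KR mice, 5153, 16133 and 5909 bp in KE mice and 2773 to 10808 bp in WT mice. The rank of this rise rested on KE replicate 2, far above the other KE mice. Ndrg1, a stress-responsive gene, measured 4852, 5826 and 5514 bp in KR mice and 9833, 10230 and 10227 bp in KE mice, with 9588, 3499 and 10244 bp in WT mice. Its covered bases differed less, 7199 to 8721 bp in KR and 9833 to 10230 bp in KE mice, and still did not overlap.

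Arid1a, a subunit of the SWI/SNF remodeling complex, measured 8396, 8333 and 8034 bp in KR mice and 3871, 3928 and 3835 bp in KE mice. WT mice (8324, 3774 and 3858 bp) and EZ mice (3956, 8386 and 8316 bp) showed both widths. The covered bases were 8034 to 8396 bp in KR and 7492 to 7713 bp in KE mice. Bcl6 measured 11531, 11073 and 10505 bp in KR mice and 7936, 8092 and 6156 bp in KE mice, but its covered bases overlapped (12653 to 13124 and 12315 to 13165 bp). Of the 13 ER gene domains, Atf6, Herpud1, Hspa5 and Pdia2 were wider in every KE than in every KR mouse, as were Ctrl, Gp2 and Spink1 of the 20 digestive enzymes, with none narrower, and the same genes separated without the 2 libraries. Over all domains the share wider was 9.43%, and 15.0% without the 2 libraries, and whether either list differs from it was not tested.

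**Figure D4:**
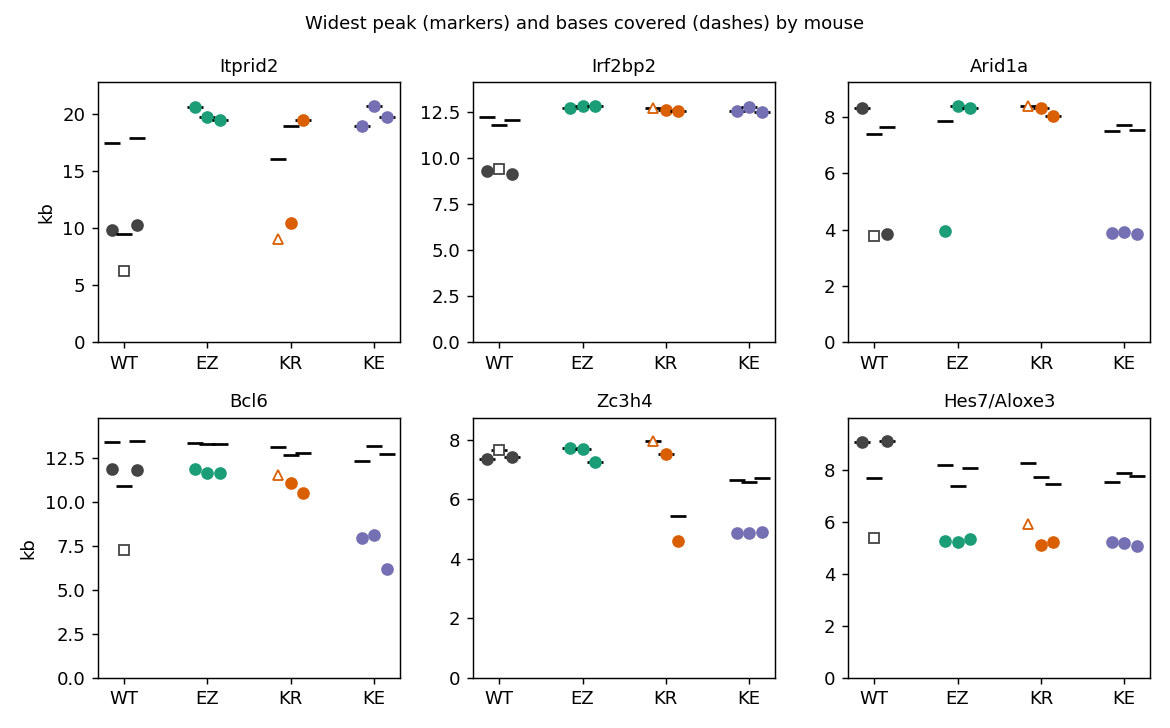
Widest peak (markers) and bases covered by any peak (dashes) in kb at 6 domains, for 3 mice in each genotype; the open square is WT replicate 2 and the open triangle KR replicate 1. At Zc3h4 the KE mice are at 4865 to 4890 bp, and at Bcl6 the dashes of KR and KE mice overlap while the KE markers lie below the KR markers.

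To test width without the choice, domains were chosen by the same rule in the 6 lists of the other 2 genotypes, and the median width over them was compared between the 6 remaining mice. With 3 mice against 3, the smallest p an exact permutation test can give is 0.1, so no comparison could pass 0.05. At 882 domains chosen in KR and KE mice, the EZ mice had a median of 5954 ± 38.0 bp (SD, n = 3) and the WT mice 5288 ± 909 bp, a difference of 667 bp with all EZ mice above all WT mice (exact permutation test, two-sided, p = 0.1, adjusted p = 0.4 over 4 comparisons). WT mice had 5754, 4240 and 5869 bp and EZ mice 5987, 5913 and 5963 bp. The difference was 143 bp without WT replicate 2.

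At 880 domains chosen in EZ and KR mice, KE minus WT was 561 bp (5860 ± 352 and 5299 ± 919 bp, SD, n = 3 each, exact permutation p = 0.5, adjusted p = 0.667), and 31.3 bp without WT replicate 2. At 898 domains chosen in WT and EZ mice, KE minus KR was 276 bp (5820 ± 350 and 5544 ± 244 bp, SD, n = 3 each, exact permutation p = 0.3, adjusted p = 0.6). KE minus KR was 154 bp without KR replicate 1 and 155 bp without it and WT replicate 2. At 923 domains chosen in EZ and KE mice, KR minus WT was 297 bp (5516 ± 248 and 5218 ± 948 bp, SD, n = 3 each, exact permutation p = 0.9, adjusted p = 0.9). Without WT replicate 2 the last difference was -249 bp. None of the 4 differences was distinguishable from the spread between mice by this test.

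The domains were largely free of the mark that EZH2 deposits: 982 of 1114 overlapped no H3K27me3 peak in any mouse. The share of domain bases inside an H3K27me3 peak was 0.0754%, 8.37% and 0.346% in WT mice, 0.309%, 0.351% and 0.366% in EZ mice, 0.969%, 0.466% and 0.583% in KR mice and 0.394%, 0.633% and 0.483% in KE mice. WT replicate 2 stood apart, and the KE mice lay within the range of the KR mice or just below it. At the other H3K4me3 regions the share was 0.377% to 9.59%. In 12 of 12 mice the domains had less H3K27me3 than the other regions, with a mean difference of -1.18 ± 0.553 percentage points (SD, n = 12; exact sign-flip permutation test, two-sided, p = 0.000488, the smallest it can give). Without WT replicate 2 and KR replicate 1 the domains were still below the other regions in all 10 mice.

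The cover overlapped between the groups in each of the 4 comparisons. KR minus WT was -2.26 percentage points, KE minus WT -2.43, EZ minus WT -2.59 and KE minus KR -0.169 (exact permutation tests, n = 3 each, p = 1, 1, 0.9 and 0.5, adjusted p = 1 for each). The first 3 rested on WT replicate 2: without it KR minus WT was 0.262, KE minus WT 0.00815 and EZ minus WT -0.00496 percentage points. KE minus KR was -0.0141 without KR replicate 1. No difference was detectable in these 4 comparisons with 3 mice a group. The 3 EZ mice lay below every KR and KE mouse, a comparison that was not among those tested, and the cover of the 10 mice other than WT replicate 2 and KR replicate 1 was 0.633% or less of the domain bases.

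Where the mark was present, it fell into sets that overlapped in part. WT replicate 2 had H3K27me3 at 120 domains, 106 of them in no other mouse, and 68 of the 120 were wide in H3K4me3 in 10 or more lists. KR replicate 1 had it at 15, of which 12 were shared with WT replicate 2. Of the 508 domains wide in 10 or more lists, none had H3K27me3 in any of the other 10 mice. Pdx1, Gata4 and the splicing regulator Esrp1 were covered over 100% of their length in WT replicate 2 and 100%, 88.2% and 85.6% in KR replicate 1, and 0% in the 10 others. At Pdx1 the H3K4me3 peak was 4284 bp in WT replicate 2 and 5709 bp in KR replicate 1, against 6038 to 7546 bp elsewhere.

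The other set was marked in most mice. All 7 domains under H3K27me3 in 6 or more mice were wide in H3K4me3 in WT replicate 2 and KR replicate 1 only. Of these, Ikzf3, Satb1 and Lef1 were also covered in WT replicate 2 (100%, 77.4% and 29.9%). Cd53, Kcna3, Itga4 and Gm11342 were not. The 5 domains with the highest mean cover were Cd53 (80.0%), Ikzf3 (78.9%), Satb1 (63.2%), Kcna3 (62.2%) and Itga4 (60.7%), which encode a leukocyte tetraspanin, the lymphoid factor Aiolos, a T cell chromatin organizer, a lymphocyte potassium channel and an integrin of migrating lymphocytes. Cd53 had H3K4me3 of 6135 bp in WT replicate 2, 6000 bp in KR replicate 1 and 3069 bp in KE replicate 1, a peak of 501 bp in EZ replicate 2 and none in the other 8 mice. Its H3K27me3 cover was 0% in WT replicates 1 and 2 and 68.5% to 100% in the other 10 mice. H3K27me3 and H3K4me3 were both present at Cd53 in KR replicate 1, KE replicate 1 and EZ replicate 2, and whole tissue does not show whether the same cells carried them.

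**Figure D5:**
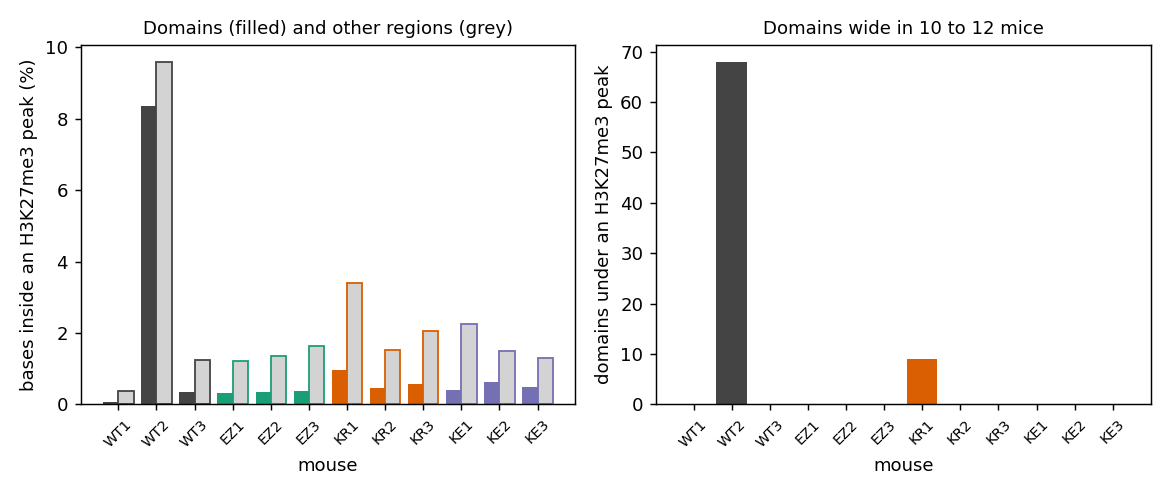
Left, percent of bases inside an H3K27me3 peak in each mouse, for the 1114 domains (filled) and other H3K4me3 regions (grey). Right, number of the 508 domains wide in 10 to 12 mice that overlap an H3K27me3 peak: 68 in WT replicate 2, 9 in KR replicate 1 and 0 in each other mouse.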

How the data were processed

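The samples were 12 H3K4me3 and 12 H3K27me3 ChIP libraries and 12 inputs from whole pancreas. Per the labels and the study's methods, reads were checked with FastQC and aligned with Bowtie2 to mm10, and the authors called peaks for each mouse with HOMER in histone mode against its own input; versions are not given in the sources used here. Each deposited list gives chromosome, start and end of a peak, with no count, signal or score, and the inputs have no list used here. The members and gene lists were chosen with earlier results of these data known.

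Here, width in a mouse was that of its widest peak overlapping a domain by 1 bp or more, and 0 where it had none; covered bases were those of any peak inside the domain. H3K27me3 peaks that overlapped within a list (1972 to 4244 a list) were merged first. Genes were taken from GENCODE mouse release 21 (autosomes), promoter windows from RefSeq. Tests over mice were exact permutation tests with Benjamini-Hochberg adjustment over 4 comparisons. Replicates were separate mice by their labels. The genes named were the 10 widest domains, the 3 largest rises and falls per comparison among groups that did not overlap, members of 14 lists, 3 domains on either side of the width limit and the 5 with most H3K27me3; others were chosen after their values were seen, as stated. The further allele of KR and KE mice and some genes that this rule names are not reported here. Python 3.11.15 and NumPy 2.4.6 were used, and the functions were tested on simulated peak lists. Alternatives were another width limit, number of lists, joined peaks, measure and left-out mice.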

Additional observations from a re-analysis of the deposited data

Results flagged for a closer look

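At 4 domains every KR mouse was wider than every WT mouse while every KE mouse was narrower than every EZ mouse, so the differences KR minus WT and KE minus EZ went opposite ways. The difference between them was not tested. How often all H3K4me3 regions show this pattern was not counted, so the 4 of 1114 domains cannot be set against a background. At Gfi1, a zinc finger repressor of blood and secretory cells, KR minus WT was 1301 bp and KE minus EZ -340 bp. It measured 6234, 4461 and 6187 bp in WT mice, 6528, 7025 and 7233 bp in KR mice, 7090, 7095 and 6980 bp in EZ mice and 6820, 6539 and 6785 bp in KE mice. At a domain inside Vdac2 (chr14:21830351-21836649) the values were 964 and -288 bp, at Slc38a2, an amino acid transporter, 731 and -882 bp, and at Zfp516 1398 and -246 bp. Slc38a2 measured 5489, 5133 and 5398 bp in WT mice, 5592, 5765 and 6856 bp in KR mice, 7148, 6961 and 6936 bp in EZ mice and 5668, 6904 and 5828 bp in KE mice. By covered bases, KE mice measured 6374, 6904 and 6455 bp at Slc38a2, still below the EZ mice, and WT mice 8671, 7178 and 8509 bp at Zfp516. WT replicate 2 was the narrowest mouse at all 4 domains. Without it, an alternative chosen after seeing the data, KR minus WT was 718 bp at Gfi1, 139 bp at the Vdac2 domain, 628 bp at Slc38a2 and 999 bp at Zfp516. At Vdac2 the other WT mice measured 5933 and 5947 bp and the narrowest KR mouse 5988 bp.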

How the results depend on the processing

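The number of domains was 2171 with a minimum width of 4000 bp and 620 with 6000 bp, and it stayed within 1.5 times of 1114 under the other alternatives run. Leaving out 1 mouse at a time, the width difference at held-out domains, KR minus WT, ranged from -249 bp (without WT replicate 2) to 601 bp, and it was -126 bp without WT replicate 2 and KR replicate 1. KE minus WT ranged from 31.3 to 853 bp, KE minus KR from 128.5 to 469.5 bp and EZ minus WT from 143 to 957 bp. H3K27me3 cover, KR minus WT, ranged from -3.70 to 0.262 percentage points and KE minus WT from -3.87 to 0.00815, with the highest values without WT replicate 2; without WT replicate 2 and KR replicate 1 they were 0.0104 and 0.00525. The cause of these changes was not tested. Leaving out both libraries, chosen after seeing the data, moved the counts of domains whose widths did not overlap from 61 to 177 (KR above WT), 12 to 336 (KR below WT), 15 to 128 (KE below WT), 105 to 167 (KE above KR), 23 to 54 (KE below KR) and 10 to 96 (EZ below WT); fewer mice make a gap between groups more frequent. Covered bases in place of the widest peak, also chosen after seeing the data, moved none of these counts by over 1.5 times.

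Width deviations of mice with equal replicate numbers from their genotype means correlated between -0.701 and 0.533 over domains. Of 18 pairs, 7 were above 0.1, among them all 3 pairs of KR with KE mice (0.220 to 0.533). With 3 mice a genotype, WT replicate 2 and KR replicate 1 shift the means and so the deviations of the other mice. These correlations therefore cannot show whether equal replicate numbers pair the mice. With the replicate number as a block, EZ minus WT at held-out domains was 667 bp and KE minus KR 276 bp (exact sign-flip permutation test, p = 0.25 for each, the smallest it can give with 3 pairs), and no call changed. Depth is unknown, so its part in any width cannot be told apart.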
